A study of Mus musculus with 2 samples.

Results

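The genes encoding telomerase and the telomere-capping complex shelterin were examined in polyadenylated RNA from undifferentiated mouse embryonic stem cells (mESCs). The set comprised 9 genes, Tert, Dkc1, Terf1, Terf2, Tinf2, Pot1a, Pot1b, Acd and Rtel1, which were picked by name and were all found among the 22556 genes of the count table. The cells were iXist-ChrX-Dom mESCs, a female line from a Dom/129S x Cast cross in which a TetOn promoter replaces that of Xist on the Dom/129S allele. No inducer had been given (0 h), so both libraries belong to 1 untreated group with 2 replicates and no second condition exists. The cells were kept in serum and LIF, and mitomycin-treated fibroblast feeders had been removed by pre-plating. Both libraries are of this 1 line, and nothing in the labels says whether they came from separate cultures, so every p-value below measures the difference between these libraries and may be technical.

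Telomeres end in repeats of TTAGGG that shorten with each round of replication unless telomerase extends them. Telomerase copies a template within its RNA subunit, Terc, by means of the reverse transcriptase Tert, and dyskerin, the product of Dkc1, binds and stabilizes Terc. Shelterin covers the repeats, with Terf1 and Terf2 on the double strand, the Pot1 proteins on the single-stranded overhang, and Tinf2 and Acd bridging them. The helicase Rtel1 unwinds telomeric loops during replication. Pluripotent cells are known for active telomerase.

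Replicate 1 held 23716499 counted fragments and replicate 2 held 20275749, and the limit behind a count of 0, taken as 3 fragments, was 0.126 and 0.148 counts per 1000000 (CPM) respectively. All 12 ES cell markers reached 1 TPM (transcripts per 1000000, from counts per kb of exon), with means from 41.0 TPM for Sall4 to 2283 TPM for Tdgf1. The largest falls among the 12 were those of Dppa5a, from 626 TPM in replicate 1 to 79.6 TPM in replicate 2, and Pou5f1, from 110 to 17.2 TPM. Zfp42 alone was higher in replicate 2, at 807 and 886 TPM. Of 8 neural precursor markers 2 reached 1 TPM and 3 had no count in either library, although the labels name the cell type as mESC to NPC. Of 10 feeder fibroblast markers 2 reached 1 TPM, of which Fn1 stood at 118 TPM and Thy1 at 1.22 TPM. The summed feeder markers were at 120 TPM in both libraries, nearly all of it Fn1, and the other 9 summed to 3.07 TPM in replicate 1 and 0.725 TPM in replicate 2, whereas those of ES cells summed to 5799 TPM in the first library and 4611 TPM in the other. In RNA from bulk cells, fewer cells of a type and less RNA per cell cannot be told apart.

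All 9 genes were detected in both libraries and had a mean of at least 1 TPM. Their levels ran over a range of 1002-fold, from 2.40 TPM for Acd to 2407 TPM for Dkc1, with a median of 32.4 TPM. The range was 652-fold in replicate 1 and 2658-fold in replicate 2, where Acd rested on 16 counts. On exonic bases inside the counted span and on the deposited length Tert was the lowest by mean, and the ranges were 460-fold and 597-fold. The median of the 12253 genes with at least 1 TPM was 18.4 TPM, and 7 of the 9 genes lay above it. Dkc1 alone made up 86.6% of the summed TPM of the set. Below Dkc1 the order was Terf1, Pot1a, Pot1b, Tinf2, Terf2, Rtel1, Tert and Acd. The values of the 2 replicates did not overlap between neighbours for 4 of the 8 neighbouring pairs, namely Dkc1 and Terf1, Terf1 and Pot1a, Pot1a and Pot1b, and Rtel1 and Tert. Pot1b, Tinf2, Terf2 and Rtel1 lay between 16.3 and 42.5 TPM with no neighbours separated, and neither were Tert and Acd. Pot1b, at 32.3 and 39.9 TPM, still lay above both values of Terf2, 30.2 and 24.9 TPM, and of Rtel1, 31.4 and 16.3 TPM. The level plot shows these values.

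**Figure D1:**
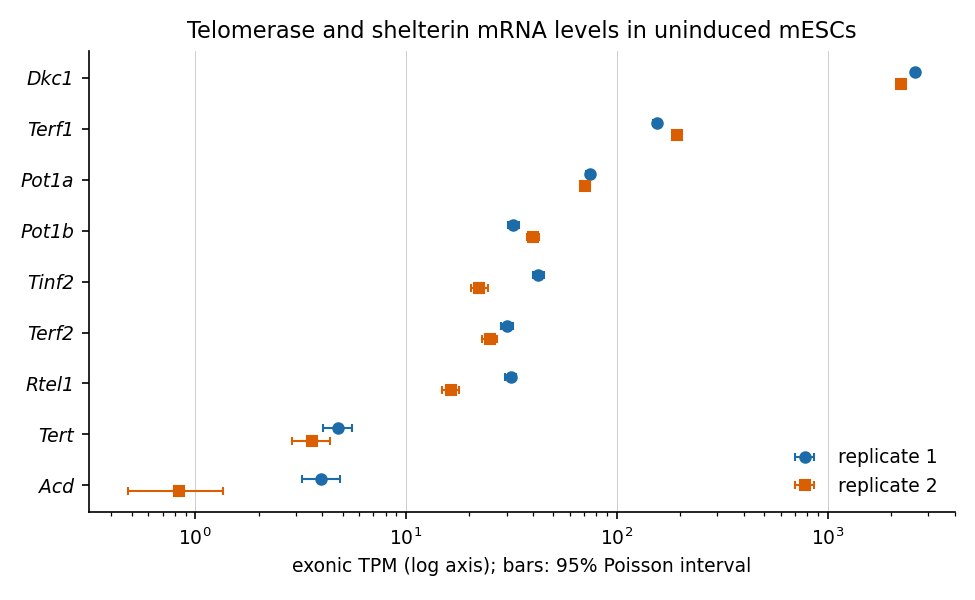
Exonic TPM of the 9 genes in replicate 1 (blue circles) and replicate 2 (orange squares) on a log axis, ordered by their mean, with 95% Poisson intervals that cover counting error only. Dkc1 stands at 2585 and 2230 TPM, more than 10 times any other gene, while Tert and Acd lie below 5 TPM in both libraries.

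Dkc1 (X:75095853-75109776, plus strand, mm10) was by far the most abundant of the set. It received 54485 counts in replicate 1 and 37804 in replicate 2, which gave 2585 and 2230 TPM (mean 2407 ± 251, SD, n = 2). Both libraries placed it far above Terf1, the next gene, with a ratio of the means of 13.9. Among all genes it ranked 21 by mean TPM, at percentile 99.8 of the genes with at least 1 TPM. Dyskerin also serves the box H/ACA RNAs that guide pseudouridylation, so its transcript is not particular to telomerase.

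Dkc1 is the 1 X-linked gene of the set, and the study used mRNA data of this line to class genes by their initial expression level. Among 530 X-linked genes with at least 1 TPM Dkc1 ranked 6 from the top. Split by level into 3 classes of equal size, these genes had their highest class begin at 83.9 TPM, and Dkc1 belonged to it. Its mean was 64.4 times the X-linked median of 37.4 TPM, and on the deposited length 98.3 times a median of 25.7 TPM. In replicate 1 it ranked 7 of 540 genes and in replicate 2 it ranked 7 of 523, so the place was nearly the same in each library. A snoRNA of 118 bp, Gm25520, lies within the counted span of Dkc1, and its 3′ end shares 45 bp with Mpp1 on the opposite strand, which the strand-specific counting keeps apart.

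Tert (13:73627000-73649041, plus strand) lay near the other end, with only Acd lower on exonic length. It received 154 counts in replicate 1 and 93 in replicate 2, or 4.75 and 3.57 TPM (mean 4.16 ± 0.836, SD, n = 2), at percentile 23.4 of the genes with at least 1 TPM. The Poisson intervals ran from 4.03 to 5.56 TPM and from 2.88 to 4.37 TPM, so they overlapped. The transcript of the catalytic subunit was thus detected in both libraries at a low level. The level of Dkc1 was 544 times that of Tert in replicate 1 and 625 times in replicate 2, a log2 ratio of 9.19 ± 0.14 (SD, n = 2). The 3 genes nearest to Tert in log2(TPM + 1) over the 2 libraries were Zfp128, Mapre3 and Brf2, at distances of 0.0046, 0.0319 and 0.0320.

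The starts of these telomerase genes, which lay far apart in level, are shown as the 250 bases before the RefSeq start (GRCm38.p6, plus strand), with the GC box, GGGCGG on either strand, in capitals. The Dkc1 window is chrX:75095604-75095853 and the Tert window chr13:73626661-73626910. The RefSeq start of Tert lies upstream of the counted gene, with 89 bases between the window and the counted span, whereas the Dkc1 window reaches it.
Dkc1: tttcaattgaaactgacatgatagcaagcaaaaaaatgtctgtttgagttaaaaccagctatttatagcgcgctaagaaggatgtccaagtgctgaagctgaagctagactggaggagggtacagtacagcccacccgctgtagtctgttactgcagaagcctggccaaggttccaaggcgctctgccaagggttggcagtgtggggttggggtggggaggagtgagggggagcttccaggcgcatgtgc
Tert: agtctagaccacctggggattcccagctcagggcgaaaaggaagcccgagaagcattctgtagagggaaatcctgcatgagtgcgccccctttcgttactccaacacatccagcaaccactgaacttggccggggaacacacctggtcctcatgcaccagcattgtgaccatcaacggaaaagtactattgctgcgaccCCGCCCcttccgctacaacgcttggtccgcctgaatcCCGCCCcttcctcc
The Tert window held 2 GC boxes and the Dkc1 window none, and 32.7% of 32851 mouse promoters of this length held at least 1. The E-box CACGTG, which binds Myc proteins, was found in neither window and in 6.02% of all promoters. Tert had 12 CpG dinucleotides and a GC content of 57.2% in this window, against 5 and 52.0% for Dkc1. These letters describe the windows and say nothing of which factors were bound.

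Terc, the telomerase RNA, was not seen in either library (0 counts, with a limit of 3 per library). Terc ends without a poly(A) tail in its mature form, and the RNA was isolated on oligo(dT) beads, so its abundance cannot be read from these libraries. Bases 1 to 60 of its 423 bases in GENCODE M21 are shown because they hold the template that Tert copies, in capitals at positions 29 to 36.
Terc: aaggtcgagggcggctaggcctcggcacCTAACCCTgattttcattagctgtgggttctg
The capitals are the reverse complement of the telomere repeat, and this run of letters occurred 1 time in the transcript.

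Terf1 (1:15805645-15844052, plus strand) was the most abundant of the shelterin genes on exonic length, while on the deposited length Tinf2 was higher. It had 2642 counts in replicate 1 and 2628 in replicate 2, or 155 and 192 TPM (mean 173 ± 26.0, SD, n = 2). Terf2 (8:107069401-107096545, minus strand), which forms the loop that hides the chromosome end, had 873 and 579 counts, or 30.2 and 24.9 TPM (mean 27.6 ± 3.75, SD, n = 2). Both libraries held more Terf1 than Terf2, by 5.13 times in replicate 1 and 7.69 times in replicate 2, and the intervals for counting error, 4.75 to 5.54 and 7.02 to 8.43, did not overlap. On the deposited gene length, which includes introns, the ratios were 2.14 and 3.21, a log2 mean of 1.39 in place of 2.65. Terf2ip, the Rap1 protein that is recruited by Terf2, had 455 and 350 counts, or 17.0 and 16.3 TPM. Terf2 exceeded Terf2ip by 1.78 and 1.53 times on exonic length but stood at 0.648 and 0.559 of it on the deposited length, so the direction of this ratio rests on the length used.

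Mouse carries a pair of Pot1 genes where human has one. Pot1a represses damage signalling at telomeres, and Pot1b limits resection of the end. Pot1a (6:25743734-25809226, minus strand) had 2389 counts in replicate 1 and 1836 in replicate 2, or 74.2 and 70.9 TPM (mean 72.5 ± 2.32, SD, n = 2). Pot1b (17:55652024-55712628, minus strand) had 912 and 906 counts, or 32.3 and 39.9 TPM (mean 36.1 ± 5.38, SD, n = 2). Pot1a was the higher in both libraries, by 2.29 times in replicate 1 and 1.78 times in replicate 2. It took 72.4% of the counts of the pair in replicate 1 (95% Clopper-Pearson interval 70.8 to 73.9%) and 67.0% in replicate 2 (65.2 to 68.7%).

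The paralogs could be told apart by sequence. Their longest coding transcripts aligned over 2130 bases with 79.7% identity, and no word of 50 bases of Pot1a occurred in any transcript of another gene. The first ungapped stretch of 90 aligned coding bases within 1 exon of each gene is shown with the differing bases in capitals. It covers coding bases 10 to 99, in exon 5 of the longest Pot1a transcript (chr6:25794585-25794674, minus strand, GRCm38) and exon 4 of that of Pot1b (chr17:55700017-55700106, minus strand).
Pot1a: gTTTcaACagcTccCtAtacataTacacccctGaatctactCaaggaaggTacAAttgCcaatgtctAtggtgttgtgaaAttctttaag
Pot1b: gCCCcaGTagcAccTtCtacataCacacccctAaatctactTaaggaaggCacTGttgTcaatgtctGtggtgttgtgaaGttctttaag
The copies differed at 17 of these 90 bases.

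Tinf2 (14:55679079-55681817, minus strand), which holds Terf1, Terf2 and Acd together, had 1157 counts in replicate 1 and 489 in replicate 2. These gave 42.5 and 22.3 TPM (mean 32.4 ± 14.3, SD, n = 2). Acd (8:105698158-105701095, minus strand), also called Tpp1, recruits telomerase and binds the Pot1 proteins. It was the lowest of the set, with 94 counts in replicate 1 and 16 in replicate 2, or 3.96 and 0.839 TPM (mean 2.40 ± 2.21, SD, n = 2). Rtel1 (2:181319723-181356616, plus strand) had 1044 and 436 counts, or 31.4 and 16.3 TPM (mean 23.8 ± 10.7, SD, n = 2). For each of these 3 genes, replicate 1 was the higher, and their coefficients of variation, 44.0%, 92.0% and 44.7%, were the largest of the set, where those of the other 6 ran from 3.20 to 20.1%.

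The place of Tinf2 and Acd depended on the gene length. Their GENCODE exons extend past the span in which fragments were counted. Of the 3620 exonic bases of Tinf2 1740 lay inside the counted span, of the 3154 of Acd 1415, and of the 4313 of Tert 3427. Exonic TPM understates these 3 genes to the extent that fragments lay outside. Such exons are common, since 37.5% of genes had all their exonic bases inside the counted span. Fragments from introns were counted too, which raises the exonic TPM of any gene by an amount that was not measured. With only the exonic bases inside the span, an alternative chosen after the values were seen, Tinf2 stood at 60.9 TPM, Acd at 4.83 TPM and Tert at 4.73 TPM. On the deposited length Tinf2 stood next to Dkc1 at 221 TPM and Acd reached 13.2 TPM, while Terf1 was at 53.5 TPM, Pot1a at 24.7 TPM and Pot1b at 11.7 TPM, the spans being 2739 and 2938 bp for Tinf2 and Acd but 38408, 65493 and 60605 bp for the other 3. Dkc1 was first on all 3 lengths, at 2407, 2175 and 2520 TPM. Outside the counted span, 1247 exonic bases of Tinf2 lie in exons of Gmpr2 and 603 of Acd in exons of Carmil2 (Rltpr in the count table), both on the opposite strand in GENCODE M21. Inside the span, 122 exonic bases of Tinf2 lie in exons of Gmpr2 and 0 of Acd in exons of Carmil2. Of the 50-base words of their longest transcripts, on either strand, 35.9% and 26.0% occur in transcripts of other genes, against 0 to 2.07% for the other 7 genes. The length plot shows how the order changes.

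**Figure D2:**
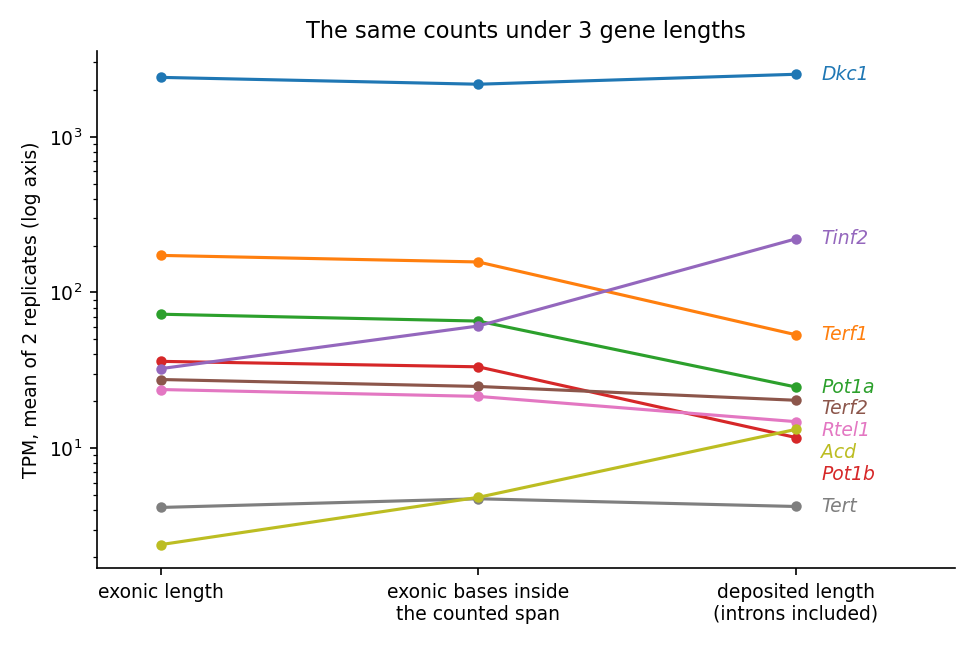
Mean TPM of the 9 genes over 2 replicates, on a log axis, from the same counts divided by exonic length, by the exonic bases inside the counted span, and by the deposited length that includes introns. The lines of Tinf2, Acd and Pot1b cross others, whereas Dkc1 stays first at 2175 to 2520 TPM.

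The 2 libraries were then compared gene by gene, the ratio of library totals being the null of an exact, two-sided binomial test that was adjusted after Benjamini-Hochberg across 14536 genes. All 9 genes differed at an adjusted p of 0.05, 7 lower in replicate 2 and 2 higher. The libraries differed widely, however. Of all tested genes 60.8% differed, 45.7% being lower and 15.1% higher in replicate 2, so the calls do not set the 9 genes apart. The median log2 ratio of replicate 2 to replicate 1 was -0.37 over the 9 genes and -0.31 over all tested genes, and the median absolute ratio was 0.37 against 0.42. Of the ES cell markers, 11 of 12 were called lower in replicate 2 and 1 higher, and 8 and 3 when the GC trend described below was the expected ratio, where 21.6% of all genes were lower and 23.0% higher. Their part in the differences of the 9 genes was not tested.

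The falls from replicate 1 to replicate 2 were largest for Acd, at a log2 ratio of -2.29, Rtel1, at -1.03, and Tinf2, at -1.02, with adjusted p-values of 1.67e-11, 8.17e-38 and 9.03e-41 in the exact binomial test. Tert was lower by a log2 ratio of -0.50 (adjusted p = 0.016, exact binomial test), Terf2 by -0.37, Dkc1 by -0.30 and Pot1a by -0.15. Terf1 and Pot1b were each higher by 0.22. With TMM factors, which scale on the bulk of genes and add 0.26 to every log2 ratio, 7 of the 9 genes were called against 57.7% of all genes. Tert at -0.24 (adjusted p = 0.272, exact binomial test) and Terf2 at -0.11 (adjusted p = 0.225) were then no longer called, and Pot1a changed direction to 0.10. With DESeq2 size factors, which add 0.31, 6 of the 9 genes were called against 57.8% of all genes, and Dkc1 moved to 0.01 (adjusted p = 0.348, exact binomial test). The directions of Tinf2, Rtel1, Acd, Terf1 and Pot1b were the same under both scalings. Tert and Terf2 also kept theirs, but neither was called under either scaling.

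The replicate ratios of the 9 genes ran with the GC content of their transcripts. The 4 genes with a GC content of up to 45%, Terf1, Pot1a, Dkc1 and Pot1b, had log2 ratios between -0.30 and 0.22, and the 5 genes above 50%, Tinf2, Terf2, Rtel1, Tert and Acd, lay between -0.37 and -2.29. Over the 9 genes Pearson's r was -0.82 and Spearman's rho -0.87, as a description of genes that share both libraries. The same trend ran through all genes: over 9693 genes that had 50 or more counts per library rho was -0.67, and the median log2 ratio was 0.16 for 2913 genes of up to 45% GC and -0.57 for 3741 genes above 50%. When the GC trend of autosomal genes was taken as the expected ratio, 7 of the 9 genes were called, 5 lower and 2 higher, against 44.6% of 14396 genes tested, of which 21.6% were lower and 23.0% higher. Tert moved to 0.13 (adjusted p = 0.643, exact binomial test) and Terf1 to 0.04 (adjusted p = 0.387), whereas Terf2 changed direction to 0.18 (adjusted p = 0.0413). Acd at -1.54, Tinf2 at -0.49, Rtel1 at -0.46, Dkc1 at -0.33 and Pot1a at -0.20 were called lower in replicate 2 also by this measure, and Pot1b at 0.26 higher. The GC plot places the 9 genes on the trend.

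**Figure D3:**
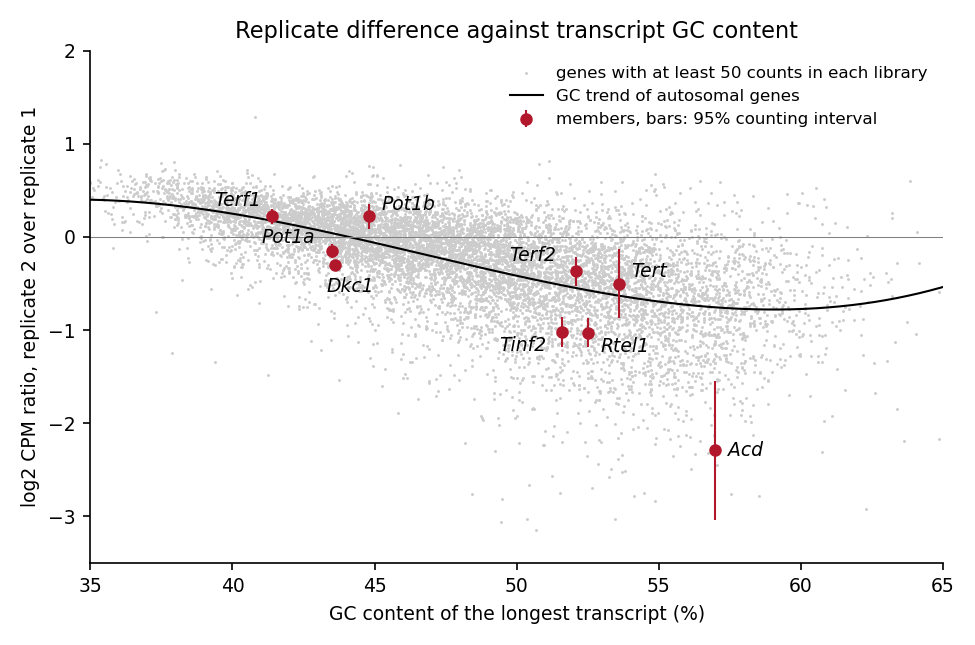
Log2 ratio of CPM in replicate 2 over replicate 1 against the GC content of the longest transcript, for genes that had 50 or more counts per library (grey), the trend of autosomal genes (black line) and the 9 genes (red, with bars of 95% intervals for counting error). Tert lies on the trend within its bar and Acd, Tinf2, Rtel1, Dkc1 and Pot1a lie below it, Acd farthest with a difference of -1.54 from the trend.

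The wider telomere pathway was read from 56 other genes in 7 lists. Of these 53 had at least 1 TPM, 41 at least 10 TPM and 12 at least 100 TPM. In the replicate test 29 of the 54 tested were lower in replicate 2 and 12 higher, to be read against the 45.7% and 15.1% of all genes given above, and 20 and 7 against the GC trend, where 21.6% and 23.0% of all genes were. Summed on exonic length, end protection and damage signalling was the largest list, at 1886 and 2108 TPM. Telomere end synthesis and replication was next, at 1604 and 1694 TPM. Sums on other lengths were not taken, and this order may depend on the length.

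In the list of the telomerase particle and its assembly, 11 of 12 genes had at least 1 TPM, with a median of 27.9 TPM. On exonic length the highest was the assembly factor Naf1, with 4243 counts in replicate 1 and 4669 in replicate 2 (189 and 258 TPM), and the lowest was Terc. On the deposited length Nop10 was higher than Naf1, at 705 against 115 TPM. Dkc1 exceeded its H/ACA partners in both libraries, Nop10 by 14.1 and 38.2 times, Nhp2 by 32.4 and 56.6 times and Gar1 by 64.0 and 77.9 times. On the deposited length the excess over Nop10 was smaller, at 2.50 and 6.76 times, and on exonic bases inside the counted span it was 9.41 and 25.5 times. Of 11 tested genes 10 were lower in replicate 2 and 1 was higher, where 45.7% and 15.1% of all genes were. Against the GC trend 7 were lower and 1 higher, where 21.6% and 23.0% of all genes were, and Gar1 and Shq1, at 0.17 and 0.12, were in the other direction and not called. Nop10 fell from 1525 to 391 counts, a log2 ratio of -1.74, or -1.56 against the GC trend. Ruvbl2 at -1.90, the helicase Pif1 at -1.58, Nhp2 at -1.10 and Ruvbl1 at -1.07 were the others with a log2 ratio below -1. Against the GC trend these 4 ratios were smaller, at -1.13, -0.90, -0.45 and -0.49.

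Among the partners of shelterin all 6 had at least 1 TPM. On exonic length tankyrase 2 (Tnks2) was the highest at 498 TPM. The nuclease Dclre1b, which processes the leading-strand end, was the lowest at 5.02 TPM. On the deposited length Fbxo4 was lower than Dclre1b, at 6.25 against 17.3 TPM. Tnks2 and Tnks were higher in replicate 2, also against the GC trend. Slx4 was lower at -0.54 but stood at 0.09 against the GC trend, and Terf2ip had a log2 ratio of -0.15 that did not pass the test (adjusted p = 0.192, exact binomial test). All 11 genes of telomere end synthesis and replication were present, from Stn1 (listed as Obfc1) at 9.09 TPM, a subunit of the CST complex, to Pola1 at 567 TPM, the catalytic subunit of the polymerase that fills in the C-strand. On the deposited length Pola1 stood at 48.4 TPM and Prim1 was the highest at 266 TPM. Pola2 at -1.08 and Fen1 at -1.21 also lay below -1 in replicate 2 over replicate 1, but stood at -0.40 and -0.57 against the GC trend.

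End protection and damage signalling had 11 of 11 genes with at least 1 TPM, from Mad2l2 at 2.66 TPM to Rif1 at 925 TPM. Mad2l2 had 52 counts in replicate 1 and 15 in replicate 2, a log2 ratio of -1.53, or -0.76 against the GC trend. Of the 5 genes of telomeric chromatin the remodeller Atrx was the highest at 571 TPM, its partner Daxx had a log2 ratio of -1.18 (-0.44 against the GC trend), and the telomere-binding Zbtb48 was the lowest at 0.816 TPM, with 21 and 5 counts and a log2 ratio of -1.74 (-0.97 against the GC trend). The Zscan4 and Tcstv genes, which are expressed in a minor, transient state of mESC cultures in which telomeres lengthen, had 7 of 8 genes with at least 1 TPM and a median of 5.63 TPM. Zscan4a was the highest at 12.1 TPM, Tcstv1 had 2 counts and 0 counts, and Tcstv3 had 18 and 3 counts, a log2 ratio of -2.18 (-1.85 against the GC trend). The 6 Zscan4 copies share 49.6 to 95.3% of their 50-base words with other genes, so their single values are uncertain. The meiotic telomere tethers were present at 5.38 TPM for Terb1 (listed as Ccdc79) to 15.7 TPM for Terb2 (listed as 4933406J08Rik).

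**Figure D4:**
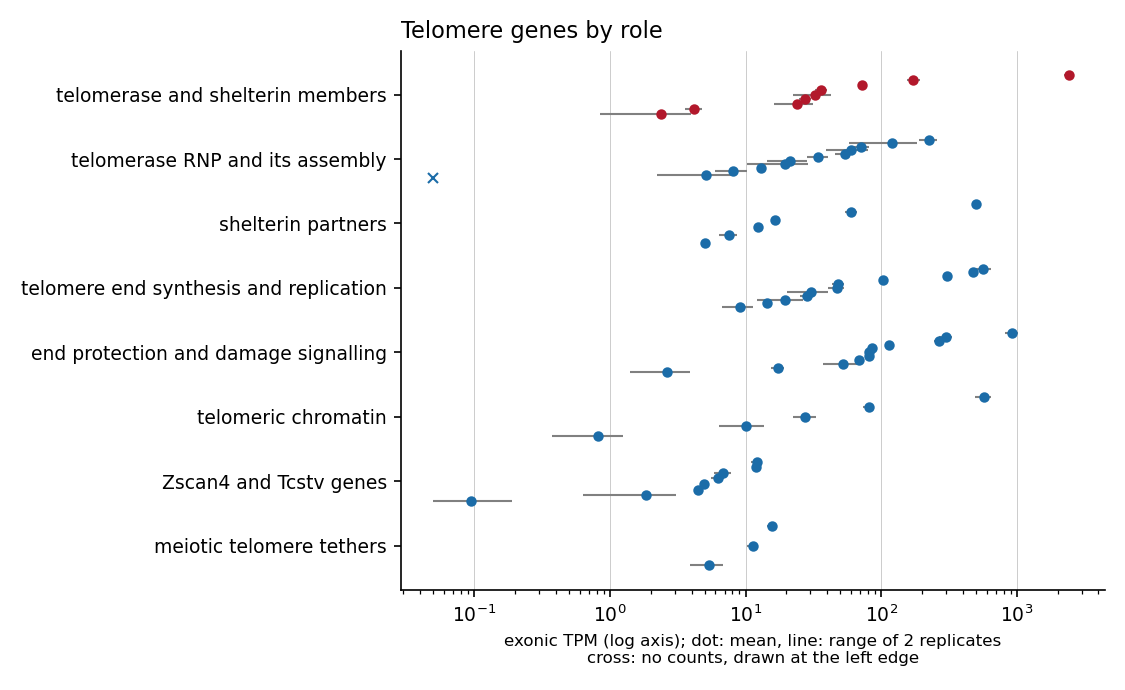
Exonic TPM on a log axis for the 9 genes (red) and for 56 other telomere genes in 7 lists (blue), with a dot at the mean and a line over the range of the 2 replicates. The cross at the left edge is Terc, which had 0 counts, and the line of Tcstv1 is cut at the same edge because replicate 2 had 0 counts. Dkc1 stands to the right of all others, and Acd and Tert lie among the lowest genes of the lists.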

How the data were processed

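Polyadenylated RNA of 2 libraries was sequenced with a stranded kit. The deposited values are counts made by the authors with featureCounts (1.5.2 per the file headers) over whole transcript spans, introns included, in reverse-stranded, paired mode, on mm10. The submitters' processing notes also name Bowtie2 2.3.2 and STAR 2.4.2a. How the mRNA reads were aligned is not given in the sources used here. The deposited length equals the union of transcript spans for all 22556 genes. Count columns were matched to samples by name, apart from a letter b present only in the sample descriptions.

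TPM was computed from the counts with exonic lengths of the GENCODE M21 basic annotation (GRCm38), matched for 98.1% of genes (21239 by symbol, 894 by synonym). As the study does, both replicates were averaged. Log2 ratios between replicates used CPM with 0.5 counts added. The counts were compared by a two-sided exact binomial test, which compares these 2 libraries and not conditions, over all genes that reached 10 counts summed over both libraries. The code of this test was checked on simulated data. The GC trend was fitted to 9243 autosomal genes as a polynomial (degree 3). Intervals and limits of detection account for counting error alone, since no molecular identifiers mark separate molecules. edgeR (4.0.16, R 4.3.3) gave TMM factors and a biological coefficient of variation of 0.276 over 12766 genes, and DESeq2 (1.42.0) gave size factors. Tables and tests used Python 3.11.15, pandas 2.3.3, scipy 1.17.1 and Biopython 1.88.

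The members and lists were chosen with earlier results of these data known. Named are the 9 genes, the highest and lowest gene of each list, Terc, Terf2ip, listed telomere genes that passed the test with an absolute log2 ratio over 1, and the 3 genes nearest to Tert. Other genes were named after their values were seen. Promoters came from the RefSeq table, where 8 of the 9 genes matched and Terf1 did not.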

Additional observations from a re-analysis of the deposited data

How the results depend on the processing

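No paired analysis was possible because both libraries belong to 1 group. The 9 genes called between replicates (60.8% of all genes) became 7 with TMM factors (57.7%), 6 with DESeq2 size factors (57.8%) and 7 with the GC trend (44.6%), and stayed 9 with either count filter. Directions turned for Tert (0.13) and Terf2 (0.18) with the GC trend, for Pot1a with TMM factors (0.10) and DESeq2 size factors (0.16), and for Dkc1 with DESeq2 size factors (0.01). The added shift of each scaling and the GC term set these changes. Of 36 pairs of the 9 genes, 29 kept their order on the deposited length, 33 on the longest transcript, 34 on exonic bases inside the counted span, and 34 to 35 in a single replicate. The log2 ratio of Pot1a to Pot1b was 1.37 on the longest transcript and 0.83 to 1.20 in single replicates. That of Terf1 to Terf2 was 1.39 on the deposited length, 2.12 on the longest transcript and 2.36 to 2.94 in single replicates. That of Dkc1 to Tert was 8.86 on exonic bases inside the span, chosen after seeing the data, and 9.09 to 9.29 in single replicates. The percentile of Dkc1 among X-linked genes, 98.9, was 98.7 on the deposited length, 98.6 over genes of at least 5 TPM and 98.7 in each single replicate. Telomere pathway genes at 1 TPM or more numbered 53, against 54 on the deposited length, 49 at 5 TPM and 52 to 54 in single replicates. Depth limits Acd most, at 16 counts in replicate 2.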

Other observations

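The start regions of 8 of the 9 genes were searched for 3 motifs, none of which was found in all 8. Terf2 and Pot1b had 2 RefSeq starts each, and only the start nearest to that of the counted gene was searched. A GC box was found in 4 of them (Tert, Pot1a, Pot1b and Rtel1), against 32.7% of all promoters, and a CCAAT box, in either orientation, in 3 of them (Terf2, Acd and Pot1b), against 33.8%. The E-box CACGTG was found in none of the 8, against 6.02% of all promoters, which says only that these letters are not in the 250 bases before the start. The GC content of the windows ran from 46.8% for Acd to 61.6% for Pot1a, around a median of 52.4% over all promoters. Acd, whose transcript has the highest GC content of the set at 57.0%, had the lowest in this window, which ends 133 bases before the counted gene.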
